A study of Mus musculus with 6 samples.

Results

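Mul1 and Rnf185 encode RING-type E3 ubiquitin ligases that are anchored in membranes, and their transcripts were followed in livers of mice with and without Mul1 on a high-fat diet (HFD). They were taken by gene symbol and are 2 of the 3542 genes in the deposited table. Mul1(-/-) mice lack Mul1 in the whole body and were bred from heterozygous parents, as the study's methods state, and Mul1(+/+) mice were the wild-type controls. Both groups entered the HFD at 8 weeks of age and stayed on it for 16 weeks, and liver mRNA of 3 mice per genotype was sequenced. The study used male and female mice, and the labels do not give the sex of a library. The labels name hepatocytes as the cell type, while the sampled material was liver tissue, and a normal-diet group was not analysed here.

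A RING finger E3 ligase binds an E2 enzyme that carries ubiquitin and brings it to a chosen substrate, so that the substrate is degraded, moved or altered in activity. MUL1 sits in the outer mitochondrial membrane with its RING domain facing the cytosol, and is known for acting on the fusion protein MFN2, the fission protein DRP1 and the kinase AKT, and for a part in mitophagy, the removal of mitochondria by autophagy. RNF185 lies mainly in the membrane of the endoplasmic reticulum (ER), where it takes part in ER-associated degradation (ERAD), the export of misfolded proteins to the proteasome. It has also been linked to mitochondria and to the DNA sensor cGAS.

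On mouse genome build GRCm38 (GENCODE M21), Mul1 (ENSMUSG00000041241) spans 7595 bases of the plus strand of chromosome 4, from 138434671 to 138442265. Its principal transcript has 4 exons and 3733 nucleotides, of which 1056 are coding sequence. Rnf185 (ENSMUSG00000020448) spans 36382 bases of the minus strand of chromosome 11, from 3415982 to 3452363, and its principal transcript has 7 exons and 2787 nucleotides, of which 576 are coding sequence. The build to which the authors mapped their reads is not given in the sources used here, so these positions describe the genes and not the deposited values.

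The 250 bases before each RefSeq start site (GRCm38.p6) are shown because transcript levels of both genes differed between the same libraries, as described after them. Each runs 5′ to 3′ on the strand of its gene, and capitals mark the motifs found among 6 that were searched on both strands. The letters searched were those of the CCAAT box, GGGCGG for the GC box, TATAAA for the TATA box, CACGTG for the E-box, CCGGAAG for the ETS core and TGACGTCA for the cAMP response element, and they were chosen with the sequences in view. The Mul1 window is chr4:138434422-138434671 on the plus strand, and the Rnf185 window is chr11:3452957-3453206 on the minus strand.
Mul1: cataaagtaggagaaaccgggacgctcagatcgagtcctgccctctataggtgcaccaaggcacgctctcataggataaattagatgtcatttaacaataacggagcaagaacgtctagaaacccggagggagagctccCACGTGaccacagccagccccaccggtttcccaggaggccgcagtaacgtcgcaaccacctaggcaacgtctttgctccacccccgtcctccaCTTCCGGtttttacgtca
Rnf185: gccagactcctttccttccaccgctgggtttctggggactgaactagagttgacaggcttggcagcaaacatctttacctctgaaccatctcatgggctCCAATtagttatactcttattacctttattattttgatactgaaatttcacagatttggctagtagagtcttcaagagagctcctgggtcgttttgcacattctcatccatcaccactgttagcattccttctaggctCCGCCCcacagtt
The capitals in the Mul1 window are an E-box at bases 140 to 145 and an ETS core read on the opposite strand at bases 233 to 239. In the Rnf185 window they are a CCAAT box at bases 100 to 104 and a GC box read on the opposite strand at bases 238 to 243. None of the 6 motifs was in both windows. Of 32851 RefSeq windows of this length, 6.02% held the E-box, 6.91% the ETS core, 33.8% the CCAAT box and 32.7% the GC box, and among the 3082 windows of genes in the table the shares were 8.31%, 10.8%, 35.5% and 52.2%. The Mul1 window was 54.4% G or C with 16 CG pairs, and the Rnf185 window was 45.2% G or C with 3 CG pairs, where the medians were 52.4% and 6 over all windows and 58.8% and 13.5 over those of genes in the table. The RefSeq start of Rnf185 lies 593 bases upstream of the GENCODE start, whereas those of Mul1 are 1 base apart. A match of letters shows no binding, and no factor was measured here.

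Mul1 transcript was lower in all 3 Mul1(-/-) livers than in any Mul1(+/+) liver, and it was not lost. Each value is a normalized count, a number of reads that the authors scaled by 1 factor per library. Mul1 had 3172, 3232 and 3423 normalized counts in Mul1(+/+) replicates 1 to 3. In Mul1(-/-) replicates 1 to 3 it had 1037, 965 and 1753 normalized counts. The first 2 of these were 31.7% and 29.5% of the Mul1(+/+) mean and the last was 53.5%, so the targeted gene kept mapped reads in every knockout library. The values rest on 710 to 1996 reads in Mul1(-/-) and 3649 to 4191 in Mul1(+/+), far above a floor of 3 reads. The table counts reads over the whole gene and does not tell which exons they cover, so transcript that runs through or around the deleted part cannot be told apart from intact transcript. Protein is another matter: the study probed MUL1 in liver extracts of both genotypes by Western blot. It describes Mul1(-/-) mice on HFD as lacking MUL1 expression.

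The knockout mean of Mul1, 1252 ± 436 normalized counts (SD, n = 3), stood at 38.2% of the control mean of 3276 ± 131 (SD, n = 3). The highest Mul1(-/-) library was at 55.3% of the lowest Mul1(+/+) library, and the groups did not overlap. On the log2 scale, after adding 1 to each value, the difference was −1.44 (standard error 0.40, 95% interval −2.33 to −0.55). limma gave an adjusted p of 0.0126 (Benjamini-Hochberg over the 3542 genes), which does not pass the threshold of the study's methods, an adjusted p under 0.01 together with an absolute log2 fold change above 1. An exact two-sided permutation test gave p = 0.1, the smallest value that 3 against 3 libraries allow.

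Rnf185 transcript was also lower in each Mul1(-/-) liver than in any Mul1(+/+) liver, with a wider spread among the knockouts. It had 1609, 1686 and 1597 normalized counts in Mul1(+/+) replicates 1 to 3. In Mul1(-/-) replicates 1 to 3 it had 649, 457 and 1242 normalized counts, or 39.8%, 28.0% and 76.2% of the Mul1(+/+) mean. Replicate 3 thus lay closest to the controls, as it did for Mul1. These values rest on 373 to 1414 reads in Mul1(-/-) and 1904 to 1955 reads in Mul1(+/+).

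For Rnf185 the knockout mean, 782 ± 409 normalized counts (SD, n = 3), stood at 48.0% of the control mean of 1631 ± 48.5 (SD, n = 3). The groups did not overlap, and the highest Mul1(-/-) library stood at 77.8% of the lowest Mul1(+/+) library. The log2 difference was −1.18 (standard error 0.45, 95% interval −2.18 to −0.19), with an adjusted p of 0.0287 from limma and p = 0.1 from the exact two-sided permutation test. Both genes therefore had an unadjusted limma p under 0.05, 0.00475 for Mul1 and 0.0244 for Rnf185, and neither passed the threshold. In liver tissue, fewer cells of a type and less RNA per cell cannot be told apart.

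**Figure D1:**
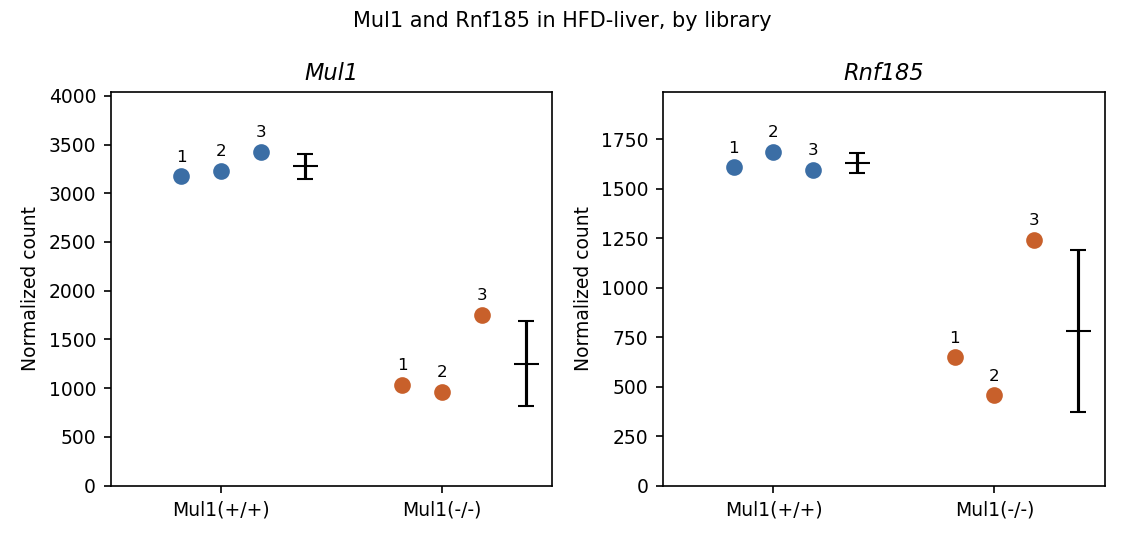
Normalized counts of Mul1 and Rnf185 in each of the 6 libraries, with points for single mice and the mean and SD of each genotype. The 3 Mul1(-/-) values of Mul1 lie between 965 and 1753 and those of Rnf185 between 457 and 1242, all below the Mul1(+/+) values.

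These 2 results have to be read against the table they come from, which holds only genes that the authors had selected for a difference between the same 6 libraries. The adjusted p-values cover these selected genes alone, so they come out smaller than they would over all measured genes. The study applied its threshold to its own DESeq2 comparison, so a pass or failure here is not the same test. With limma, 854 of its 3542 genes passed the threshold (24.1%), and 7.43% passed as lower in Mul1(-/-). At an adjusted p under 0.05, without a limit on the fold change, 96.3% of all genes passed and 42.8% passed as lower, as did Mul1 and Rnf185. An unadjusted limma p under 0.05 was reached by 3416 of the 3542 genes. In 90.3% of the genes the groups did not overlap, with Mul1(-/-) lower in 41.0% and higher in 49.3%. The table was lopsided in level as well: 2012 genes were higher and 1530 lower, with a median log2 fold change of 1.12. Among the 1530 lower genes the median was −1.43, the log2 fold change was larger in size than that of Mul1 in 752 (49.2%), and it was larger in size than that of Rnf185 in 1217 (79.5%). A difference of the size seen for Mul1 was thus at the middle of the lower genes, and that for Rnf185 was among the smaller ones.

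The direction of both genes did not depend on how libraries were scaled, whereas its size did. Scaling the libraries by their median ratio moved the median log2 fold change of the table from 1.12 to 0.46, and gave −2.10 for Mul1 and −1.84 for Rnf185. Mul1 passed the threshold under that scaling (adjusted p = 0.00893 from limma), and Rnf185 did not (adjusted p = 0.0146). The median ratio takes most genes to be unchanged, whereas the genes of the table were selected for a difference. It therefore shifts lower genes further down, and that pass is no independent support. All rescaling here used the genes of the table alone. Mul1 also passed at a pseudocount of 10 (adjusted p = 0.0082) and with a trend in limma (adjusted p = 0.00546). Leaving out Mul1(-/-) replicate 3 changed the call of both genes. Without it the log2 difference was −1.71 for Mul1 (adjusted p = 0.00202 from limma) and −1.58 for Rnf185 (adjusted p = 0.00328), and both passed, although 2673 genes of the table passed as well. Without Mul1(-/-) replicate 2, Rnf185 differed by −0.86 (adjusted p = 0.085 from limma).

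**Figure D2:**
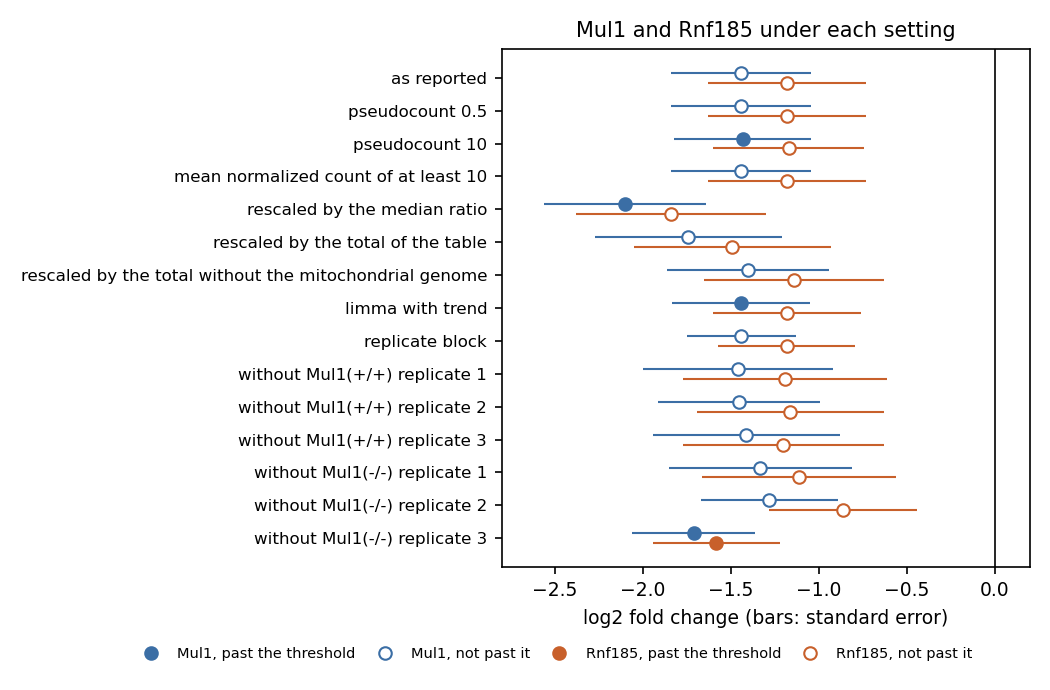
Log2 fold change of Mul1 and Rnf185, Mul1(-/-) minus Mul1(+/+), as reported and under each setting that changes the values or the fit, with bars for the standard error and filled points for values past the threshold of an adjusted p under 0.01. Every point lies below 0, from −2.10 to −1.28 for Mul1 and from −1.84 to −0.86 for Rnf185, and both genes are filled together without Mul1(-/-) replicate 3.

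At the authors' scaling, Mul1 and Rnf185 were among the steadiest genes of the table in the Mul1(+/+) livers. The SD of the log2 value over the 3 Mul1(+/+) mice was 0.0571 for Mul1 and 0.0426 for Rnf185, where the median over the table was 0.346. To compare them with genes of like precision, the 1257 genes with a Mul1(+/+) mean of at least 1000 normalized counts were taken, and their median SD was 0.301. Of these, 43 (3.42%) had a smaller SD than Mul1 and 19 (1.51%) a smaller one than Rnf185. In Mul1(-/-) livers the SD was 0.47 for Mul1 and 0.731 for Rnf185, against a median of 0.527 for the same 1257 genes, of which 43.8% and 73.9% had a smaller SD. The highest library exceeded the lowest by 1.08-fold for Mul1 and 1.06-fold for Rnf185 in Mul1(+/+), and by 1.82-fold and 2.72-fold in Mul1(-/-). With 3 libraries per genotype these SDs are themselves imprecise, and no test of the spread was made. They also depend on the scaling, and SDs after rescaling were not computed. Rescaling by the table's total would divide Mul1(+/+) replicates 1 to 3 by 0.967, 0.824 and 0.856.

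The 3 Mul1(-/-) libraries stood in the same order for both genes. Relative to the Mul1(+/+) mean on the log2 scale, Mul1 was at −1.66, −1.76 and −0.90 in Mul1(-/-) replicates 1 to 3. Rnf185 was at −1.33, −1.83 and −0.39 in these libraries. That order was common in the table: over the 1530 lower genes the medians were −1.35, −1.88 and −1.11. Replicate 2 was furthest from the controls in 73.3% of these genes and replicate 3 was nearest in 61.5%. Mul1 lay between the quartiles of the lower genes in all 3 libraries, which were −1.45 and −0.81 in replicate 3. Rnf185 lay between them in replicates 1 and 2, and in replicate 3 it was nearer to the controls than the upper quartile.

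**Figure D3:**
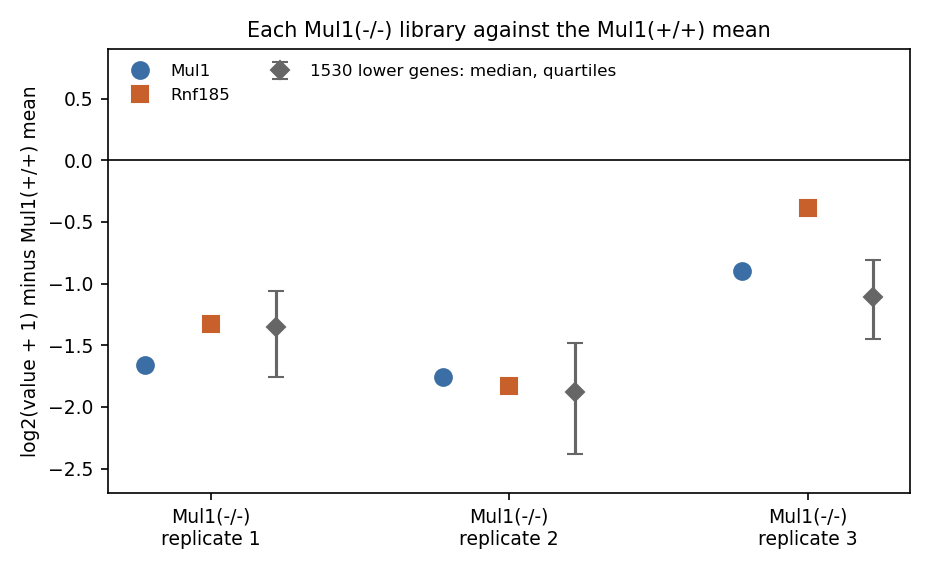
Log2 difference from the Mul1(+/+) mean in each Mul1(-/-) library for Mul1, Rnf185 and the median of the 1530 lower genes, with the quartiles of those genes. All lie lowest in replicate 2 and nearest to 0 in replicate 3, where Rnf185, at −0.39, is above the upper quartile of −0.81.

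Mul1 had the higher value of the pair in every library, also per kilobase of the principal transcript. For Mul1 in Mul1(-/-) the full length was used, although the exons that its reads cover there are not known. In Mul1(+/+) HFD-liver the level of Mul1 was 877 ± 35.0 normalized counts per kilobase (SD, n = 3) and that of Rnf185 was 585 ± 17.4 (SD, n = 3), with no overlap. In Mul1(-/-) HFD-liver the levels were 335 ± 117 and 281 ± 147 normalized counts per kilobase (SD, n = 3 each), and their ranges overlapped. The lowest and highest Mul1(-/-) levels were 259 and 470 for Mul1, and 164 and 446 for Rnf185. Ranked from the highest value of a library among the 3542 genes, without regard to length, Mul1 stood between rank 551 and 610 in Mul1(+/+) and between 751 and 1071 in Mul1(-/-). Rnf185 stood between 900 and 984 in Mul1(+/+) and between 927 and 1498 in Mul1(-/-).

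The ratio of Mul1 to Rnf185 within a library does not depend on how libraries are scaled. It was 1.97, 1.92 and 2.14 in the controls, and 1.60, 2.11 and 1.41 in the knockouts, each in the order of replicates 1 to 3. The means were 2.01 ± 0.119 and 1.71 ± 0.363 (SD, n = 3), and the groups overlapped through Mul1(-/-) replicate 2. The log2 ratio differed by −0.25, with p = 0.3 in an exact two-sided permutation test. With 3 against 3 libraries this test cannot go below 0.1, so it could not have shown a difference in the ratio.

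Likeness of pattern was described by Pearson's r of the log2 values over the 6 libraries, without a test, since genotype and the order of the knockout libraries are shared by many genes. The 5 genes most like Mul1 were Pigq (r = 0.998), an enzyme subunit of glycosylphosphatidylinositol anchor synthesis, Plekhb2 (0.998), Bend7 (0.998), the pocket protein gene Rbl2 (0.997) and the calpain gene Capn1 (0.997). All 5 were lower in Mul1(-/-), and Plekhb2 passed the threshold, with a log2 fold change of −2.01 (adjusted p = 0.00752 from limma). The others did not pass and lay between −1.38 and −1.16 (adjusted p from 0.0146 to 0.0213 from limma). The 5 genes most like Rnf185 were the ER mannosyltransferase gene Alg3 (0.999), Tmem109 (0.999), the translation initiation factor subunit gene Eif3l (0.998), the ER-phagy receptor gene Retreg2 (0.998) and the sialyltransferase gene St6galnac6 (0.997). Their log2 fold changes lay between −1.95 and −1.19, and 0 of the 5 passed the threshold with limma. All 5 had an unadjusted limma p under 0.05, as did 3416 of the 3542 genes of the table. The r between Mul1 and Rnf185 was 0.959, which placed Rnf185 at rank 420 of 3541 genes for Mul1 and Mul1 at rank 342 for Rnf185. An r above 0.9 was reached by 929 genes with Mul1 and by 716 with Rnf185.

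The other genes of the ligases' pathways were taken from 6 lists, 149 genes without Mul1 and Rnf185, of which 29 were in the table. In Mul1(-/-) HFD-liver 25 of the 29 (86.2%) were lower and 4 were higher (among them Usp35, Mb21d1 and, named after its values were seen, Fbxl4), where 43.2% of the table and 51.9% of its 2849 protein-coding genes were lower. Their median log2 fold change was −1.31. limma's threshold was passed by 4 genes, all lower (Mfn2, Atg9a, Nploc4 and Derl3), where 24.1% of the table passed and 7.43% passed as lower. At an adjusted p under 0.05, without a limit on the fold change, all 29 passed, as did 96.3% of the table. The 2 genotypes were separate in each of the 29, as in 90.3% of the table, so neither count sets the list genes apart. These genes are in the table because the authors had selected them on the same libraries, so their counts are no independent evidence of a direction. Listed genes outside the table were not analysed here. The 4 calls depended on single libraries, as did the calls over all 3542 genes. Among the 31 genes that include Mul1 and Rnf185, 0 passed without Mul1(+/+) replicate 2, Mul1(+/+) replicate 3 or Mul1(-/-) replicate 2. Of all 3542 genes, 13, 46 and 10 passed in these fits. An unadjusted limma p under 0.05 was then reached by 26, 20 and 24 of the 31 genes. Over all 3542 genes it was reached by 3039, 2514 and 2740. Without Mul1(+/+) replicate 1 the count past the threshold was 1 of the 31 and 25 of the 3542 genes. It was 2 and 631 without Mul1(-/-) replicate 1, and 23 and 2673 without Mul1(-/-) replicate 3. The dependence on single libraries was thus not particular to the list genes.

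Among 17 RING ligases of the ER and mitochondrial membranes, Mul1 and Rnf185 were the only members in the table. Of 25 genes of mitochondrial dynamics, 4 were in the table and all were lower, with Mfn2 past the threshold. Mfn2, which fuses outer mitochondrial membranes and whose protein is a known MUL1 substrate, had 7638, 5772 and 6929 normalized counts in the controls and 1907, 1700 and 2459 in the knockouts, replicates 1 to 3 in order. The groups were far apart, and Mfn2 fell by 1.75 on the log2 scale (standard error 0.38, adjusted p = 0.00785 from limma). The other 3 did not pass, with log2 fold changes of −1.43 for the formin gene Inf2, −1.26 for the protease gene Spg7 and −1.15 for the transport adaptor gene Trak2.

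Of 17 reported substrates and partners of MUL1, 4 were in the table, and Mfn2 was the only one past the threshold. The kinase gene Akt2 was at 7036 ± 358 normalized counts in controls and 2762 ± 1240 in knockouts (SD, n = 3), a log2 fold change of −1.44 equal to that of Mul1 to 2 decimals. Mavs, the mitochondrial adaptor of RNA sensing, differed by −1.64 on the log2 scale.

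Of 47 mitophagy and autophagy genes, 11 were in the table, 9 lower and 2 higher, and 1 passed the threshold. Atg9a, a membrane scramblase of the early autophagosome, fell from 2276, 1285 and 1829 normalized counts in the 3 controls to 459, 138 and 424 in the 3 knockouts. On the log2 scale it differed by −2.54 with a standard error of 0.53 (limma, adjusted p = 0.00701), more than Mul1 did. Those that did not pass included the receptor gene Calcoco1 at −1.74, the protease gene Atg4c at −1.64 and Atg13, of the kinase complex that starts autophagy, at −1.53. Atg13 and Atg4c shared with Mul1 and Rnf185 the narrow range in Mul1(+/+), 2789 ± 56.4 and 811 ± 16.8 normalized counts (SD, n = 3). The deubiquitinase gene Usp35 was higher at 1.44 on a low level, 47.2 ± 18.5 against 133 ± 60.4 normalized counts (SD, n = 3).

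Of 47 genes of ERAD, the pathway of RNF185, 8 were in the table with Rnf185 among them, and all 8 were lower. Derl3, a derlin of the ER membrane, and Nploc4, a cofactor of the ATPase that pulls proteins out of the membrane, passed the threshold. Derl3 had 540, 1482 and 3113 normalized counts in the 3 controls and 107, 96.8 and 50.9 in the 3 knockouts, so its controls alone spanned a wide range. Derl3 fell by 4.05 on the log2 scale (adjusted p = 0.00428 from limma). Nploc4 had 4249, 3066 and 4083 normalized counts in the 3 controls and 1017, 692 and 1460 in the 3 knockouts, and it fell by 1.90 on the log2 scale (adjusted p = 0.00797 from limma). Not past the threshold were the lectin gene Os9 at −1.65, Edem1, which targets misfolded glycoproteins, at −1.33, and Vcp, the ATPase itself, at −1.27. The log2 fold change of Rnf185, −1.18, was the second smallest in size of the 8.

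Of 12 genes of RNA and DNA sensing, 5 were in the table, 4 lower and 1 higher, and 0 passed the threshold with limma. All 5 had an unadjusted limma p under 0.05, as did 3416 of the 3542 genes of the table. Mb21d1, the gene of the DNA sensor cGAS, was higher at a low level, 21.1, 23.0 and 15.5 normalized counts in the 3 controls and 73.1, 82.1 and 36.0 in the 3 knockouts. The log2 difference of Mb21d1 was 1.57 (adjusted p = 0.0129 from limma). Besides Mavs, the ubiquitin ligase genes Traf6, Traf3 and Trim25 were lower, at −1.43, −1.20 and −0.99.

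**Figure D4:**
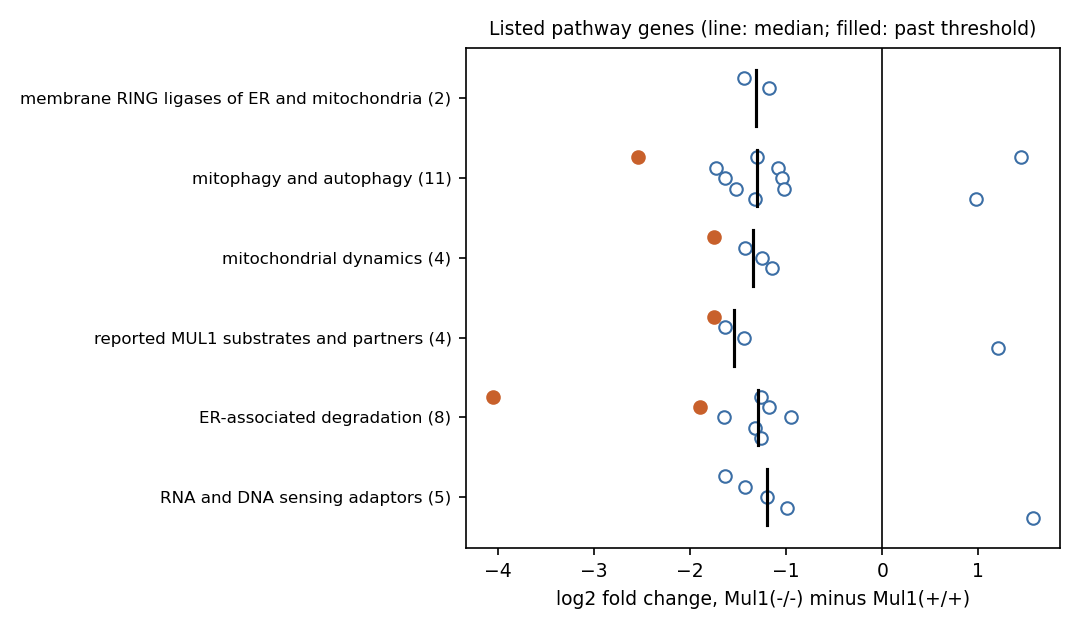
Log2 fold change, Mul1(-/-) minus Mul1(+/+), of the listed pathway genes that are in the table, by list, with a line at the median and filled points for genes past the threshold. Most points lie below 0 with list medians from −1.54 to −1.20, and the filled points are Atg9a, Mfn2 (shown in both lists that hold it), Derl3 and Nploc4.

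Genes near Mul1 on chromosome 4 were taken as the neighbours of the targeted locus. Within 5 Mb of Mul1 the table held 35 other genes, 23 lower (65.7%) and 12 higher, with a median log2 fold change of −1.17. limma's threshold was passed by 5 of them, 2 as higher and 3 as lower, where 24.1% of the table passed. Among annotated protein-coding genes of this window 31 of 177 (17.5%) were in the table, against 13.0% of those of the whole genome. The nearest gene of the table before Mul1 was Ece1, 469 kb away, an endothelin-converting protease gene, which fell from 11298 ± 3650 to 2819 ± 554 normalized counts (SD, n = 3), a log2 fold change of −1.96 (adjusted p = 0.00776 from limma). Beyond it lay Rap1gap at 1.23, the long noncoding RNA gene 2810405F17Rik at 2.85, which passed as higher, Wnt4 at 1.47 and E2f2 at −1.20. After Mul1 the nearest were the deubiquitinase gene Otud3, 453 kb away, at −1.78, Tmco4 at −1.36, Minos1, a subunit of the mitochondrial cristae complex, at 1.75, Mrto4 at 1.24 and Iffo2 at −1.03, none of them past the threshold. The other 3 genes that passed, named here after their values were seen, were Rpl11 as higher and Nipal3 and Gm13050 as lower. Within 5 Mb of Rnf185, which was not targeted, 15 of 85 annotated protein-coding genes (17.6%) were in the table. The 20 genes of the table in that window were 11 lower and 9 higher, with a median log2 fold change of −1.05. Without Mul1(+/+) replicate 1, 2 or 3 or Mul1(-/-) replicate 2, 0 of the 35 genes near Mul1 passed. In the whole table of 3542 genes 25, 13, 46 and 10 passed in these fits. An unadjusted limma p under 0.05 was then reached by 27, 33, 27 and 29 of the 35 genes. Over the table it was reached by 2471, 3039, 2514 and 2740 genes. Without Mul1(-/-) replicate 3, 26 of the 35 genes and 2673 genes of the table passed.

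**Figure D5:**
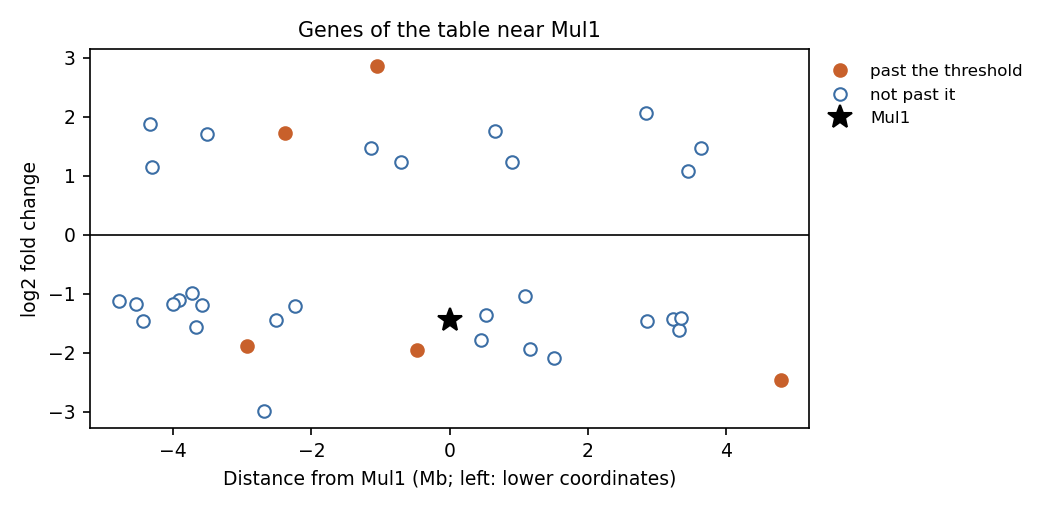
Log2 fold change, Mul1(-/-) minus Mul1(+/+), of the table's genes within 5 Mb of Mul1 against their distance from Mul1 in Mb, with filled points for genes past the threshold. Higher and lower genes are mixed on both sides of Mul1, 12 above and 23 below 0, and the 5 filled points lie in both directions.

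Other measures moved with the same libraries. Of 10 hepatocyte markers, Tat and Hnf4a were in the table, and their summed level ranged from 60281 to 95937 normalized counts in Mul1(+/+) and from 25149 to 31946 in Mul1(-/-). All 5 cholangiocyte markers in the table, of 8 listed, were higher, as were 2012 of its 3542 genes. Their sums were 1313 to 1931 in Mul1(+/+) and 4934 to 5459 in Mul1(-/-), and Spp1 made up most of each sum. Epcam and Spp1 rose past the threshold, where 16.7% of the table passed as higher (markers are named here after their values were seen). Krt19 was at 1151, 176 and 147 and Muc1 at 359, 56.3 and 63.2 in Mul1(-/-) replicates 1 to 3, so both were high mainly in replicate 1. The sum of 3 stellate cell markers of 10 listed was 4535 to 5467 in Mul1(+/+) and 9101 to 29168 in Mul1(-/-), and that of 3 endothelial markers of 9 listed was 5145 to 5728 and 1875 to 3020. Lyz2 of macrophages and Csf3r of neutrophils were higher with overlapping groups. Cd8a of lymphocytes was higher and Alas2 of erythroid cells lower, both without overlap, as in 90.3% of the table. All these markers are in the table because the authors had selected them on the same libraries. Their shifts are therefore no independent evidence of a change in cell types. No marker in the table was at 0 in any library, and the part of the markers in the levels of Mul1 and Rnf185 was not tested. Direction also went with transcript length: in the tenth of protein-coding genes from 2890 to 3821 nucleotides, where Mul1 falls, 74.0% were lower, and in that from 2326 to 2882 nucleotides, where Rnf185 falls, 65.8% were lower, against 51.9% overall. The part of length in either result was not tested. The reads on the table's genes came to between 11932163 and 15385822 per library, which is part of each library and not its depth.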

How the data were processed

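Liver mRNA of 3 Mul1(+/+) and 3 Mul1(-/-) mice on HFD was sequenced, and the authors deposited 1 table of 3542 genes. Its 6 library columns are normalized counts, which the authors made by dividing read counts by 1 factor per library without pooling replicates. Further columns hold the authors' own DESeq2 comparison (a log2 ratio of the genotypes with its Wald p-values) and were not used here. The aligner, the counting tool, strand use, build and annotation are not given in the sources used here. The number of library columns that belong to no sample of the series is 0. All values under 10000 (100% within 0.1 of a read) were whole multiples of 1 read, worth 0.817 to 1.46 normalized counts, and reads quoted here were recovered that way. These reads entered no count test, because the deposited values carry separator commas and the reads could not be checked as counts over the whole range.

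A pseudocount of 1 was added, log2 was taken, no filter on low values was set, and limma 3.58.1 (R 4.3.3) was fitted to the whole table with genotype as the only term. Differences of genes with low counts come out too small on this scale. Benjamini-Hochberg adjustment covered all 3542 genes, and a gene passed the threshold at an adjusted p under 0.01 if its log2 fold change also exceeded 1 in size. Exact permutation tests, ratios, lists and figures were made in Python 3.11.15 (scipy 1.17.1, pandas 2.3.3, numpy 2.4.6, matplotlib 3.10.9). Positions and transcripts are from GENCODE M21 (GRCm38), to which 3529 identifiers were matched and 13 were not, and promoters are from RefSeq (GRCm38.p6), with both genes matched.

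Groups and replicate numbers are those of the labels. The 2 genes, the gene lists, the tests and the settings were chosen with earlier results of these data known. Of each list, genes past the threshold and otherwise at most the 5 with the largest change were named, as were the 5 nearest genes of the table on each side of Mul1 within 5 Mb and the 5 genes most like each ligase in pattern, and 1 listed gene is not reported here. The floor in reads covers counting error only, while intervals, standard errors and p-values come from the spread between 3 mice per genotype. Other settings were pseudocounts of 0.5 and 10, a minimum mean of 10, 3 ways of rescaling, limma with a trend, the replicate number as a block, each library left out in turn and an adjusted p under 0.05.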

Additional observations from a re-analysis of the deposited data

How the results depend on the processing

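Mul1 and Rnf185 were lower in Mul1(-/-) under every setting run, and the ratio of Mul1 to Rnf185 kept its sign. Mul1 passed the threshold at a pseudocount of 10 (−1.43), after rescaling by the median ratio (−2.10), with limma's trend (−1.44) and at an adjusted p under 0.05 (−1.44), where Rnf185 passed too (−1.18). With each library left out, the log2 fold change ranged from −1.71 to −1.28 for Mul1 and from −1.58 to −0.86 for Rnf185, and the log2 ratio from −0.42 to −0.13. Among these 6 fits each gene passed only without Mul1(-/-) replicate 3, and Rnf185 had an adjusted p over 0.05 when any of the other 5 libraries was left out. With the replicate number as a block, Mul1 was at −1.44 (adjusted p = 0.0176 from limma), Rnf185 at −1.18 (adjusted p = 0.0365), and 0 genes of the table, of the lists or near Mul1 passed, with 3314, 31 and 35 at an unadjusted p under 0.05. The numbers were not taken to pair the mice, since deviations of same-numbered libraries correlated by 0.022, 0.352 and 0.054, and Mul1(+/+) replicate 1 went best with Mul1(-/-) replicate 3 (0.132). The 854 calls of the table became 1459 at a pseudocount of 10, 1318 after rescaling by the table's total, 1869 with the trend and 3380 at an adjusted p under 0.05 with the limit on the fold change kept (as in the counts that follow), and ranged from 10 (without Mul1(-/-) replicate 2) to 2673 (without Mul1(-/-) replicate 3). Split as higher and lower, the calls were 591 and 263 as reported, 236 and 1030 by the median ratio, 606 and 712 by the total, and 707 and 169 by the total without the mitochondrial genome, a scaling chosen after seeing the data. The total moved the table's median log2 fold change to 0.82 and the total without the mitochondrial genome to 1.16. The 4 calls among list genes became 14, 16, 9, 18 and 28 at a pseudocount of 10, by the median ratio, by the total, with the trend and at an adjusted p under 0.05, and 0 to 23 with a library left out. In the same order the 5 calls near Mul1 became 18, 17, 14, 17 and 34, and 0 to 26 with a library left out, with 2 calls within 2 Mb and 11 within 10 Mb. Of 49 other named genes, 0 changed direction under any setting. The edgeR and DESeq2 alternatives were not run, because the recovered reads could not be checked as counts over the whole range. Causes of these shifts were not tested. Mul1 and Rnf185 had at least 373 reads in each library, and 3 mice per genotype limit the precision.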
